A study of Mus musculus with 12 samples.

Results

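Gene expression in the spinal cord of ceftriaxone-treated SMA mice was compared with that of vehicle-treated SMA mice at 13 days of age. SMA is spinal muscular atrophy, a disease of motor neurons caused by lack of the survival motor neuron protein, SMN. The comparison uses 8 of the 12 arrays of the study, the 4 titled as treated SMA cords and the 4 titled as untreated SMA cords, with all 22626 probe sets that are not controls. The remaining 4 arrays hold vehicle-treated wildtype cords, whose signals are given beside some genes as a level only. Wildtype array 2 was rich in thymus genes, and it is part of every wildtype mean and of the fit over all 12 arrays given below.

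All mice belonged to line 4299, an FVB line. Both SMA groups had the genotype SMN2+/+;SmnΔ7+/+;mSmn -/-, so they carried human SMN2 and the SmnΔ7 transgene and no intact mouse Smn. The wildtype group was SMN2+/+;SmnΔ7+/+;mSmn+/−, with both transgenes and a single intact mouse allele. Ceftriaxone was injected into the peritoneum at 200 mg/kg daily from day 5, and vehicle was the saline solution. The labels speak both of whole cords and of lumbar segments, and give no sex for the mice. Cords were taken after perfusion with fixative and frozen, and RNA was labelled in a single round of amplification. The labels count 4 mice in each group, so the p-values below measure the spread between these animals.

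Mice of this line lose motor neurons and die as pups, and their cords are still forming myelin when the disease progresses. The antibiotic ceftriaxone, a beta-lactam, is known as an inducer of Slc1a2, the astrocyte transporter GLT-1 that clears glutamate from synapses. It has also been tied to NRF2, the transcription factor encoded by Nfe2l2 that switches on antioxidant genes through the antioxidant response element. Myelin in the cord is made by oligodendrocytes, which arise from precursors, leave the cell cycle and then build large amounts of membrane protein, cholesterol and galactolipid in the first weeks of life.

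Signals are MAS5 intensities of probe sets on a linear scale, where a probe set is the group of probes that reads out 1 transcript. Values of single arrays are listed in the order of arrays 1 to 4. Differences are means of log2(signal + 16), ceftriaxone minus vehicle, followed by ± and the standard error, so a value of 1 is a doubling and small signals give differences that are too small. A probe set or gene was called higher or lower when the limma adjusted p over all 22626 probe sets was at most 0.05. A gene in a list is read by its brightest probe set. Some genes are in more than 1 list, so the counts of different lists are not independent.

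Gapdh signal at the 3 prime end over that at the 5 prime end was 0.744 ± 0.0106 (SD, n = 4) with vehicle and 0.742 ± 0.0155 with ceftriaxone (exact permutation test, two-sided p = 0.8; the smallest p possible is 0.0286). The same ratio for actin was 1.22 ± 0.015 with vehicle and 1.28 ± 0.0896 with ceftriaxone (exact permutation test, two-sided p = 0.143), with ceftriaxone array 1 at 1.41 and the vehicle arrays at 1.21 to 1.24. Correlations of log2 signal were 0.988 to 0.99 among vehicle arrays, 0.984 to 0.988 among ceftriaxone arrays and 0.966 to 0.983 between the groups. All 4 ceftriaxone arrays and vehicle arrays 1 and 4 had signals over 1000 for Xist, the RNA of the inactive X chromosome of females, while vehicle arrays 2 and 3 had 34.3 and 20.9. Among the 6 arrays of high Xist alone, 4056 probe sets were called, of which 3934 were called the same way over all 8. Neuronal RNA was present in both groups: 10 markers of spinal cord neurons summed to signals of 48540 to 54970 with vehicle and 47370 to 53520 with ceftriaxone. Of the 10, 3 were lower (30%, against 16.8% over all genes) and 7 were not called. Several of them are made by neurons outside the cord too, so the sums do not tell cord from other nervous tissue.

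With 4 arrays per group, 7066 of 22626 probe sets were called (31.2%), 3490 higher (15.4%) and 3576 lower (15.8%) with ceftriaxone. Of these, 478 rose and 315 fell by more than 2-fold, and 67 rose and 22 fell by more than 4-fold. The arrays of the groups did not overlap for 7270 probe sets (32.1%), and 6359 of the 7066 called were among them. Read by brightest probe set, 2212 of 12393 genes were higher (17.8%) and 2082 were lower (16.8%), or 34.6% in either direction, with a median log2 difference over all genes of 0.03. For 35.4% of genes the arrays of the groups did not overlap. These percentages are the background for every count below. The median standard error was 0.133, which is the precision 4 arrays per group gave. In bulk tissue, fewer cells of a type and less RNA per cell cannot be told apart.

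**Figure D1:**
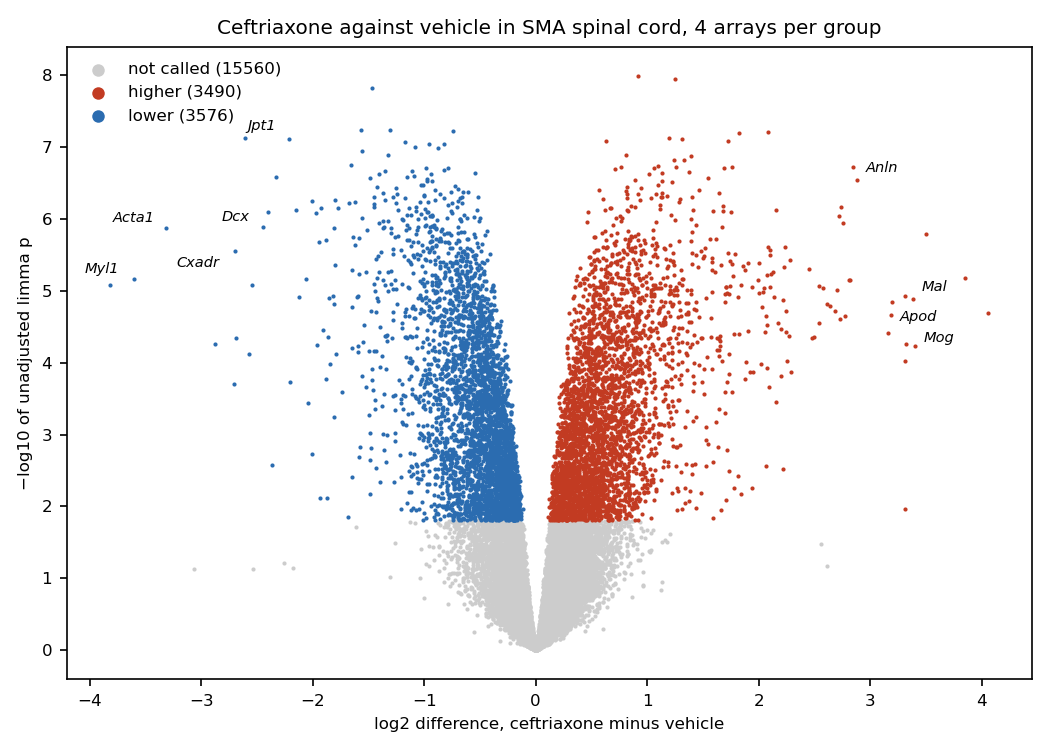
Each point is 1 of 22626 probe sets. The horizontal axis is the log2 difference of ceftriaxone minus vehicle and the vertical axis is −log10 of the unadjusted limma p. Red points were called higher (3490) and blue points lower (3576). Named points are the genes of largest rise and fall: myelin genes such as Mog lie far to the right, and muscle and immature neuron genes such as Myl1 and Dcx lie to the left.

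Smn1, the gene deleted in both SMA groups, was near the floor in both. Its signals were 3.6, 3.7, 3.9 and 5.7 with vehicle and 15.8, 3.3, 6.4 and 3.6 with ceftriaxone, against 313 ± 70.1 (SD, n = 4) in wildtype cords. The difference of 0.17 ± 0.17 was not called (limma adjusted p = 0.493), and it was 0.01 without ceftriaxone array 1, the array with the signal of 15.8.

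Among the glutamate transporters, the gene ceftriaxone is known for was higher and most of its relatives were not. Of 12 measured genes of glutamate uptake and cystine exchange, 3 were higher, 3 lower and 6 not called, with a median of 0.01. Slc1a2, Slc1a3 and Glul are also counted in the astrocyte list below, where 16 of 21 genes were higher. Slc1a2 signals were 105, 99.2, 63.9 and 55.7 with vehicle and 188, 243, 159 and 233 with ceftriaxone. The groups did not overlap, and the lowest vehicle values were those of arrays 3 and 4. Slc1a2 rose by 1.21 ± 0.21 (adjusted p = 0.00179), to a level beside 203 ± 62.1 in wildtype cords, on a single dim probe set. Slc1a3, the other astrocyte transporter, had differences of 0.01 ± 0.15, -0.10 ± 0.13 and -0.32 ± 0.14 by its 3 probe sets, and none was called. Slc1a3 signals by the brightest of them overlapped, at 1740.3, 2019, 2371 and 2614 with vehicle and 1724, 2175, 2148 and 2754 with ceftriaxone. The sign of the first difference changed with the array left out (from -0.11 without ceftriaxone array 4 to 0.12 without ceftriaxone array 1) and it was -0.03 with median centring.

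Other members moved in both directions. Slc1a6, a transporter of neurons, fell by 0.84 ± 0.14 from 547, 707, 746 and 558 with vehicle to 436, 327, 344 and 298 with ceftriaxone (adjusted p = 0.00143). Slc1a4, which carries neutral amino acids, fell by 0.70 ± 0.12 (adjusted p = 0.00213). In both genes every ceftriaxone array lay below every vehicle array. Glul, the glutamine synthetase that astrocytes use on the glutamate they take up, rose by 0.72 ± 0.18 (adjusted p = 0.0126), although vehicle array 2, at 8104, lay above the lowest ceftriaxone array, at 7089. Slc7a11, the cystine-glutamate exchanger, had signals of 61, 42.5, 55.9 and 36.2 with vehicle and 32.7, 79.5, 63.2 and 66.3 with ceftriaxone, and its difference of 0.21 ± 0.23 was not called (adjusted p = 0.534).

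Nfe2l2 and a number of antioxidant genes were higher with ceftriaxone. Nfe2l2 signals were 281, 288, 194 and 240.5 with vehicle and 636, 712, 599.7 and 772 with ceftriaxone, with no overlap. Nfe2l2 rose by 1.39 ± 0.13 (adjusted p = 0.000132), to a mean of 679.8 ± 77 beside 811 ± 106 in wildtype. Of 26 measured NRF2 genes, 14 were higher, 4 lower and 8 not called, with a median of 0.24. The called genes of smallest p besides Nfe2l2 were the ferritin heavy chain gene Fth1 (0.56 ± 0.06), the sulfiredoxin gene Srxn1 (0.54 ± 0.06), the transaldolase gene Taldo1 (0.91 ± 0.11), the mitochondrial dismutase gene Sod2 (0.48 ± 0.07) and Gclm (0.59 ± 0.09), a subunit of the enzyme that starts glutathione synthesis. In all 5 of these the arrays did not overlap. Srxn1, for example, had 591, 605, 589 and 589 with vehicle and 862, 876, 811 and 924 with ceftriaxone. Nqo1, the quinone reductase often used to read NRF2 activity, had 152, 172, 161 and 152 with vehicle and 148, 134, 141 and 157 with ceftriaxone, and its difference of -0.12 ± 0.11 was not called (adjusted p = 0.427). The heme oxygenase gene Hmox1 had -0.19 ± 0.19 and was not called either. The 4 lower calls were not stable: 2 were left without any 1 array other than ceftriaxone array 1, except that none was left without vehicle array 4. Among the 6 arrays of high Xist, 10 of the 26 were higher and 0 lower. In the fit over all 12 arrays, 8 were higher and 1 lower.

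The core of the antioxidant response element, TGACNNNGC on either strand, lay in the promoter window of 8 of the 22 NRF2 genes that could be matched by symbol (36.4%), and in 3781 of 27025 mouse genes (14%). A window runs from 250 bases before to 50 bases after a gene start, in RefSeq GRCm38.p6. Of the 8 genes with the core, 5 were higher, 1 lower and 2 not called, and of the 14 without it, 7 were higher, 2 lower and 5 not called. A match is a description of these letters and no evidence of binding. The 250 bases before the start are printed for Nfe2l2 itself, for Gclm, which rose, and for Txnrd1, the member with the core that fell, 5′ to 3′ along each gene's own strand and with the core in capitals.
Nfe2l2, chr2:75704664-75704913, minus strand: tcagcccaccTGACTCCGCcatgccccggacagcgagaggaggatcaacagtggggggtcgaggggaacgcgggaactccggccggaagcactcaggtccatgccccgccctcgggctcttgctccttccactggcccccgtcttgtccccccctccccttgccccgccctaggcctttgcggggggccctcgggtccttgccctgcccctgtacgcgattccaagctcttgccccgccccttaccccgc
Gclm, chr3:122245307-122245556, plus strand: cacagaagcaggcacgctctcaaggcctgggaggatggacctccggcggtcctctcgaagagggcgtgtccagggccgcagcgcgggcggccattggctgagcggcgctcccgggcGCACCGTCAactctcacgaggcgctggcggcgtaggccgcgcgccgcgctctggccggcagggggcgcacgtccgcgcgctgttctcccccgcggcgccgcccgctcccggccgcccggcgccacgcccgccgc
Txnrd1, chr10:82858956-82859205, plus strand: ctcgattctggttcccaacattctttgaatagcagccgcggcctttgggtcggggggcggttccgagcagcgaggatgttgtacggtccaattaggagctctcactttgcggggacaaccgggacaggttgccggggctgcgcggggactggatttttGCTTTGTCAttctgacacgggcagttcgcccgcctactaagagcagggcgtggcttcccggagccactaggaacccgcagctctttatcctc
The core reads TGACTCCGC along the strand of Nfe2l2. In Gclm and Txnrd1 it lies on the opposite strand, so that the printed capitals are its reverse complement. Gclm had 523, 598, 524 and 488 with vehicle and 731, 888, 746 and 886 with ceftriaxone. Txnrd1, the cytosolic thioredoxin reductase, fell by 0.18 ± 0.06 (adjusted p = 0.0454), with overlapping arrays, and its call was lost without any 1 array other than ceftriaxone array 1 (adjusted p of 0.0559 to 0.121). Txnrd1 was picked for its window after its values were seen.

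Among probe sets above the 40th percentile of mean signal, the gene of largest rise was Mog, and the genes of the myelin and mature oligodendrocyte list were all higher. Mog, a protein of the outer surface of central myelin that Schwann cells do not make, had signals of 1187, 993, 298 and 177 with vehicle and 4539, 6418, 5108 and 6122 with ceftriaxone. The lowest ceftriaxone array was above the highest vehicle array, and vehicle arrays 3 and 4 were the lowest of the 8. Mog rose by 3.40 ± 0.51 (adjusted p = 0.000872), to 5547 ± 876 beside 7221 ± 1540 (SD, n = 4) in wildtype. All 22 measured genes of the myelin and mature oligodendrocyte list were higher, with a median of 2.09, and all 22 stayed called when any 1 array was left out. The members of smallest p were the small heat shock protein gene Cryab (2.72 ± 0.25), Ndrg1 (1.39 ± 0.14), the N-acetylaspartate hydrolase gene Aspa (2.11 ± 0.24), the tetraspanin gene Tspan2 (1.75 ± 0.21), the apolipoprotein gene Apod (3.19 ± 0.41) and Fa2h (2.24 ± 0.29), which hydroxylates fatty acids of myelin lipids.

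The mean log2 value of the 22 myelin genes was 11.12, 10.8, 10.01 and 9.78 in vehicle arrays 1 to 4, against 12.22, 12.49, 12.25 and 12.47 in ceftriaxone arrays. The vehicle mice were far apart and the ceftriaxone mice close together. Wildtype arrays had 12.6, 12.08, 12.84 and 12.82, with the lowest on array 2, the array rich in thymus genes.

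**Figure D2:**
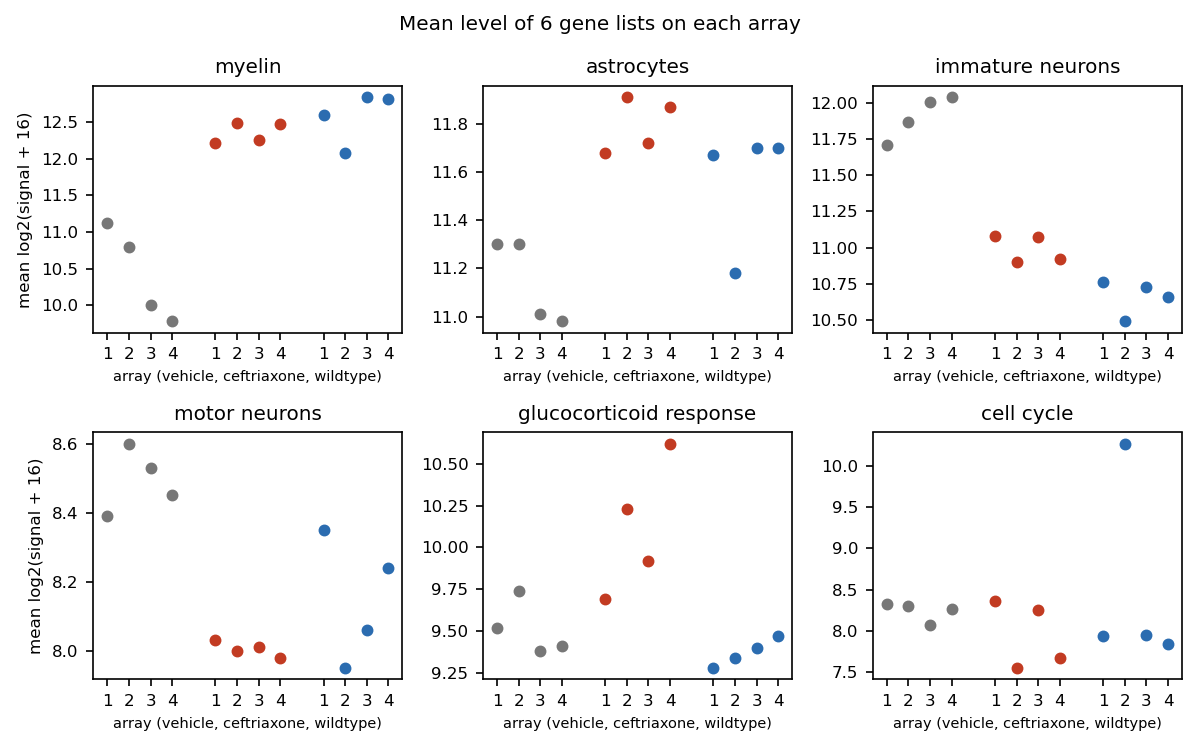
Mean log2(signal + 16) of the genes of 6 lists on each array, with vehicle arrays in grey, ceftriaxone arrays in red and wildtype arrays in blue, numbered as in the labels. Myelin genes ran from 9.78 to 11.12 with vehicle and from 12.22 to 12.49 with ceftriaxone. Immature neuron genes ran the opposite way, and glucocorticoid and cell cycle genes were spread among the ceftriaxone arrays.

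Genes of the earlier oligodendrocyte lineage were also mostly higher, with a smaller median. Of 11 measured precursor genes, 8 were higher, 1 lower and 2 not called, with a median of 0.53. Pdgfra, the growth factor receptor that defines precursors, had signals of 2363, 2614, 2241 and 2459.8 with vehicle and 3273, 2510.1, 2614 and 2514 with ceftriaxone. Those arrays overlapped, and the difference of 0.17 ± 0.09 was not called (adjusted p = 0.191). The proteoglycan genes Cspg4, another marker of precursors, and Vcan rose by 0.53 ± 0.10 and 0.50 ± 0.08 without overlap. Ptprz1 had 0.01 ± 0.08 and was not called. The transcription factor genes Olig1, Olig2 and Sox10, which act throughout the lineage, rose by 0.74 ± 0.10, 1.08 ± 0.12 and 1.28 ± 0.19. Bmp4, a signal made by cells that have begun to differentiate, rose by 1.59 ± 0.15, from 215, 294, 186 and 192 with vehicle to 632, 832, 657 and 656 with ceftriaxone (adjusted p = 0.000125). The only lower member was Cspg5, a membrane proteoglycan, which fell by 0.76 ± 0.10.

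Of 16 genes of Notch receptors and ligands, Hes and Hey factors and Id proteins, 3 were higher, 5 lower and 8 not called, with a median of -0.07. Hes6, a Hes factor known to oppose Hes1 and promote differentiation, fell by 0.60 ± 0.07, the Notch ligand gene Dll3 by 0.70 ± 0.12 and the Notch target Hes5 by 0.78 ± 0.16 (adjusted p = 0.00533), from 169, 162, 214 and 205 with vehicle to 114, 124, 101 and 75.2 with ceftriaxone. Hey1, another target of Notch, rose by 0.39 ± 0.09, and Id4 fell by 0.28 ± 0.07 while Id2 rose by 0.41 ± 0.11. The arrays of the groups did not overlap in any of the 6.

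**Figure D3:**
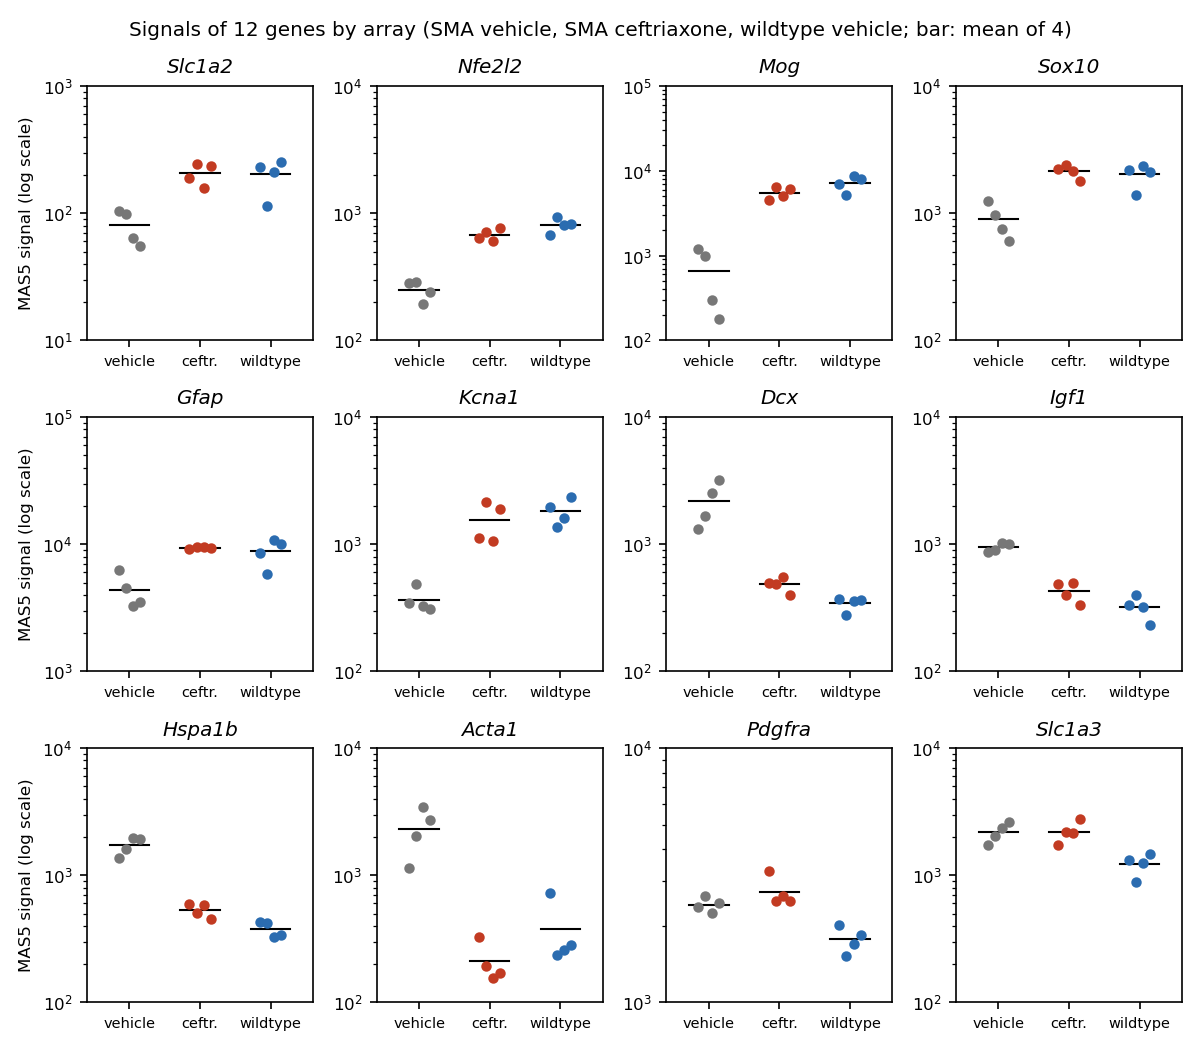
Signals of 12 genes on each array on a log scale, with vehicle in grey, ceftriaxone in red and wildtype in blue, and a bar at each group's mean. Slc1a2, Nfe2l2, Mog, Sox10, Gfap and Kcna1 lie higher with ceftriaxone without overlap. Dcx, Igf1, Hspa1b and Acta1 lie lower without overlap, and Pdgfra and Slc1a3 overlap.

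Enzymes of lipid synthesis, which myelin draws on, were mostly higher. Of 18 cholesterol synthesis genes, 14 were higher, 0 lower and 4 not called, with a median of 0.41; 1 was lower without vehicle array 2, without ceftriaxone array 1 or with median centring. Idi1, which isomerises isopentenyl diphosphate, had 2272, 2265, 2002 and 1838 with vehicle and 4055, 3953, 3832 and 3662 with ceftriaxone, without overlap, and rose by 0.89 ± 0.07 (adjusted p = 0.000121). Hmgcs1, near the start of the pathway, rose by 0.43 ± 0.06 and Lss, which closes the sterol rings, by 1.23 ± 0.13. Of 24 genes of fatty acid and sphingolipid synthesis, 15 were higher, 2 lower and 7 not called, with a median of 0.44. The very long chain elongase genes Elovl1 and Elovl7 rose by 2.10 ± 0.25 and 2.04 ± 0.25, Elovl5 by 0.63 ± 0.06 and the desaturase gene Scd2 by 0.35 ± 0.04. Fads3, of the fatty acid desaturase family, fell by 1.17 ± 0.10, from 659.8, 728, 829.5 and 803 with vehicle to 380.3, 292, 328 and 306 with ceftriaxone (adjusted p = 0.000122). Fads3 was lower under every array left out, and the other lower call of the list was lost without any 1 array except ceftriaxone array 1.

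Of 5 measured Schwann cell markers, 2 were higher (40%, against 17.8% over all genes), 0 lower and 3 not called, with a median of 0.54. All 5 differences were above 0, from 0.24 to 2.06, and in each the groups overlapped. The 5 signals summed to 5096, 1181, 1062 and 2407 with vehicle and to 3808, 9080, 8807 and 10220 with ceftriaxone. Most of that sum was Pmp22, a peripheral myelin protein that other cells also make. Pmp22 signals were 4545, 919.5, 764 and 1958 with vehicle and 3421, 8076, 7872 and 9095 with ceftriaxone, and they overlapped in vehicle array 1 and ceftriaxone array 1. Pmp22 was 1 of the 2 markers called higher (2.06 ± 0.52, limma adjusted p = 0.0132). Among the 6 arrays of high Xist its difference was 1.16 and not called (adjusted p = 0.115). Egr2 and Cldn19, which define myelinating Schwann cells more closely, had signals of at most 73.6 and 57.3 on any of the 8 arrays, and neither was called. Both were picked after their values were seen. The part of nerve root tissue in the myelin list was not tested.

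In the lists of astrocytes, microglia and vessels, called genes were all higher with all 8 arrays, and many genes were not called. Of 21 astrocyte genes, 16 were higher, 0 lower and 5 not called, with a median of 0.50; 1 was lower without vehicle array 2, with median centring or among the arrays of high Xist. Gfap, the intermediate filament of astrocytes, had 6261, 4547, 3248 and 3523 with vehicle and 9122, 9531, 9505 and 9296 with ceftriaxone. The ceftriaxone arrays lay within a narrow range above all vehicle arrays, and Gfap rose by 1.14 ± 0.17 (adjusted p = 0.000857). The calcium-binding protein gene S100b rose by 1.41 ± 0.15 and the neurotensin receptor gene Ntsr2 by 1.65 ± 0.26. The connexin gene Gja1 and the water channel gene Aqp4 rose by only 0.42 ± 0.06 and 0.59 ± 0.10. Aldh1l1, a folate enzyme used to mark astrocytes as a class, had 0.06 ± 0.06 and was not called (adjusted p = 0.498), with signals of 1946, 1788, 1781 and 1624 with vehicle and 1937, 1961, 1767 and 1795 with ceftriaxone.

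Of 22 microglia and macrophage genes, 13 were higher, 0 lower and 9 not called, with a median of 0.43. The cysteine protease gene Ctss rose by 0.74 ± 0.11, from 1317, 1153, 1342 and 903 with vehicle to 1935, 1898, 1974 and 1996 with ceftriaxone (adjusted p = 0.000877). The colony stimulating factor receptor gene Csf1r rose by 0.43 ± 0.07 and the purine receptor gene P2ry12 by 0.70 ± 0.14. Cx3cr1, the fractalkine receptor of microglia, had 0.15 ± 0.17 and the lipid receptor gene Trem2 0.20 ± 0.17, and neither was called. In the fit with Xist signal as a covariate, 8 of the 22 were higher, and 9 were among the arrays of high Xist.

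Of 21 genes of endothelium and pericytes, 11 were higher, 0 lower and 10 not called, with a median of 0.46. The pericyte gene Rgs5 rose by 0.88 ± 0.15, the glucose transporter gene Slc2a1 by 0.84 ± 0.15 and the angiopoietin receptor gene Tek by 0.77 ± 0.15. Slc2a1 had 1229, 1577, 1226 and 1148 with vehicle and 1734, 2489, 2294 and 2878 with ceftriaxone, with the highest value in ceftriaxone array 4. Pecam1, an adhesion molecule of endothelial cells, had 0.25 ± 0.14 and was not called with all 8 arrays (adjusted p = 0.209), but it was called without ceftriaxone array 4 (0.38, adjusted p = 0.0291). The count of 11 fell to 7 without vehicle array 4 and to 6 among the arrays of high Xist.

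Genes of immature neurons and growth cones were mostly lower in the ceftriaxone cords. Of 24 measured, 0 were higher, 21 lower and 3 not called, with a median of -0.80. Dcx, which binds microtubules of migrating neurons, had 1308, 1662, 2506 and 3203 with vehicle and 498, 483, 548 and 400.3 with ceftriaxone, and vehicle arrays 3 and 4 were the highest. Dcx fell by 2.06 ± 0.24 (adjusted p = 0.000271). St8sia2, whose product puts polysialic acid on the adhesion molecule Ncam1, fell by 2.15 ± 0.20. Ncam1 itself was split: it fell by 0.97 ± 0.09 by its brightest probe set and by 0.75 ± 0.07 by another. A further Ncam1 probe set was called higher (0.24 ± 0.08, limma adjusted p = 0.047), with overlapping arrays. Crmp1 and Dpysl5, proteins of the semaphorin response, had differences of -1.35 ± 0.11 and -1.68 ± 0.15 and both were called lower. Bcl11a, a transcription factor of developing neurons, fell by 1.41 ± 0.11, from 1145, 1342, 1518 and 1422 with vehicle to 604, 477, 499 and 432 with ceftriaxone. Igfbpl1, of newborn neurons, had -0.57 ± 0.35 at a dim probe set and was not called. The mean log2 value of the list was 11.71, 11.87, 12.01 and 12.04 with vehicle and 11.08, 10.9, 11.07 and 10.92 with ceftriaxone, beside 10.49 to 10.76 in wildtype.

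Genes of mature neurons and synapses split. Of 24 measured, 6 were higher, 10 lower and 8 not called, with a median of -0.10. Nefh, the heavy neurofilament of large myelinated axons, had 2969.5, 3508, 2706 and 2496 with vehicle and 4638, 4601, 4236 and 5062 with ceftriaxone and rose by 0.67 ± 0.10 (adjusted p = 0.000773), while its level in wildtype was 7429 ± 1499. The surface protein gene Thy1 rose by 0.50 ± 0.07 and the neuronal enolase gene Eno2 by 0.30 ± 0.04. On the other side, the fusion protein gene Stx1a fell by 1.08 ± 0.08 (adjusted p = 0.000121), the dendritic microtubule protein gene Map2 by 0.93 ± 0.09 and Rbfox3, which encodes the nuclear antigen NeuN, by 0.54 ± 0.06. None of these 6 overlapped between the groups. Nefm, the medium neurofilament, had 0.10 ± 0.07 and was not called. Among the arrays of high Xist, 6 of the list were higher and 5 lower.

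Motor neuron genes were lower or not called. Of 18 measured, 0 were higher, 10 lower and 8 not called, with a median of -0.42. Foxp1, a transcription factor that sorts motor neurons into limb columns, fell by 0.91 ± 0.09, from 719, 699.5, 727 and 668 with vehicle to 353, 412, 392 and 318 with ceftriaxone (adjusted p = 0.000148). Chodl, a marker of fast motor neurons, fell by 1.49 ± 0.23, from 639.8, 1013, 885 and 702 with vehicle to 404, 218, 328 and 190 with ceftriaxone. The ceftriaxone signals of Chodl were all below the wildtype mean of 694 ± 173, which lay among the vehicle signals. Calcb, a calcitonin gene-related peptide of motor and sensory neurons, showed that pattern too: it fell from 444, 893, 741 and 463 with vehicle to 375, 297, 266 and 258 with ceftriaxone (adjusted p = 0.00659), beside 689 ± 122 in wildtype. The receptor tyrosine kinase gene Ret fell by 0.54 ± 0.10, the homeobox gene Isl1 by 1.06 ± 0.22 and the peripherin gene Prph by 0.64 ± 0.15. Isl1 was not called among the arrays of high Xist (adjusted p = 0.0716), and Prph was not called with Xist signal as a covariate (adjusted p = 0.052). Slc5a7, the choline transporter of cholinergic endings, had -0.18 ± 0.15 and the homeobox gene Mnx1 -0.18 ± 0.16, and neither was called.

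Peptides and calcium-binding proteins of interneurons were mixed as well. Of 17 measured, 3 were higher, 8 lower and 6 not called, with a median of -0.20. Pvalb, the parvalbumin of fast-firing neurons and muscle, had 229, 166, 156 and 145 with vehicle and 670.1, 798, 409 and 849.5 with ceftriaxone, beside 1186 ± 407 in wildtype, and rose by 1.84 ± 0.22 (adjusted p = 0.000294). Its rise ran against the muscle genes described below. The tachykinin gene Tac2 rose by 1.73 ± 0.29, from 600.2, 363, 212 and 221 with vehicle to 1426, 1132, 956 and 933 with ceftriaxone. Peptides that fell were the nociceptin precursor Pnoc (-0.94 ± 0.09), Npy (-1.01 ± 0.12), Cck (-0.46 ± 0.05) and galanin, Gal (-0.61 ± 0.10). Nts, the neurotensin precursor, had -0.17 ± 0.10 and was not called with all 8 arrays, but it was called without ceftriaxone array 1 (-0.27, adjusted p = 0.0189).

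Of 27 listed channel genes, most of them voltage-gated, 10 were higher, 7 lower and 10 not called, with a median of -0.06. Kcna1, a potassium channel placed beside the nodes of myelinated axons, had 344, 483, 325 and 309.8 with vehicle and 1122, 2144, 1052 and 1879.7 with ceftriaxone and rose by 1.99 ± 0.23 (adjusted p = 0.000274). Ceftriaxone arrays 2 and 4 were the highest. The sodium channel gene Scn8a, which takes over at mature nodes, rose by 0.66 ± 0.07, from 1514, 1524, 1333 and 1222 with vehicle to 2238, 2200.5, 2138 and 2289.6 with ceftriaxone. Scn2a, the channel of immature nodes and unmyelinated axons, fell by 0.55 ± 0.06, from 2166, 2516, 2180.1 and 2422 with vehicle to 1705, 1535, 1567 and 1526 with ceftriaxone. Scn1a rose by 0.77 ± 0.09, the calcium channel subunit gene Cacnb4 by 0.70 ± 0.07, and the sodium channel subunit gene Scn3b fell by 0.65 ± 0.08. In none of these 6 did the groups overlap. The hyperpolarisation-activated channel gene Hcn3 fell by 1.96 ± 0.29, and the calcium channel subunit gene Cacnb2 had 0.19 ± 0.14 and was not called.

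**Figure D4:**
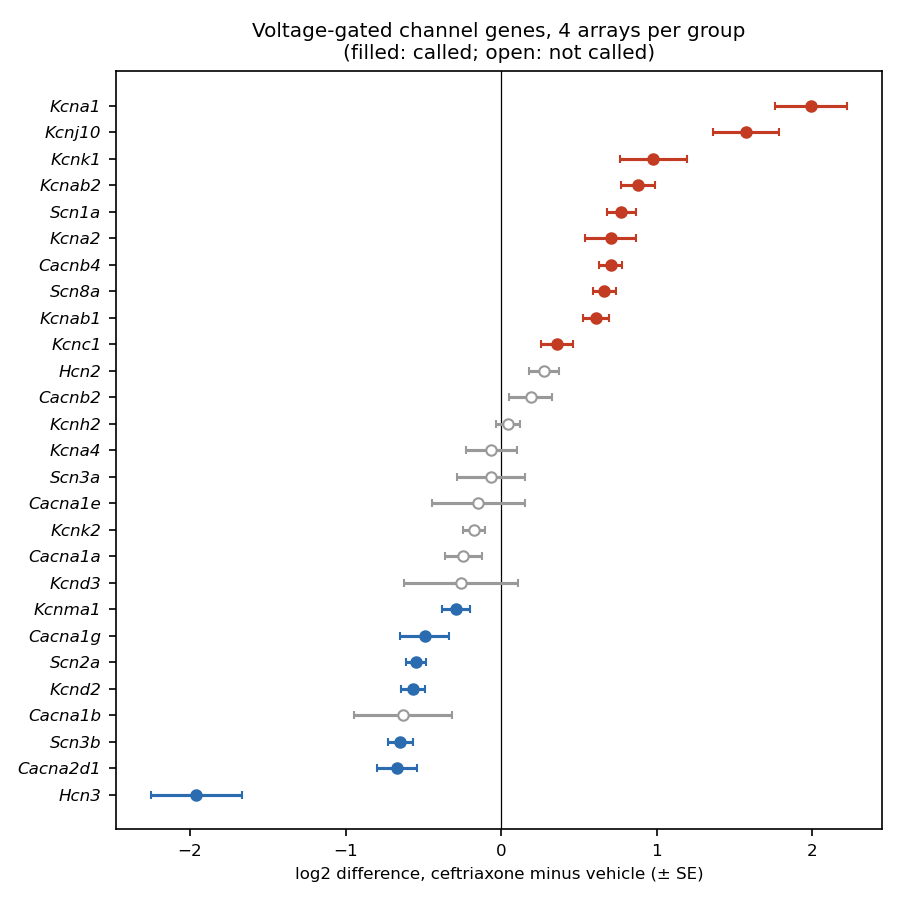
Log2 difference, ceftriaxone minus vehicle, with its standard error for the 27 measured channel genes in order of size. Filled points were called and open points were not. Kcna1 stands highest at 1.99, and Scn8a and Scn1a lie on the opposite side of 0 from Scn2a and Scn3b.

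Of 14 glutamate receptor genes, 1 was higher, 6 lower and 7 not called, with a median of -0.34. The AMPA receptor subunit gene Gria2, whose subunit keeps calcium out, fell by 0.68 ± 0.07, from 3545, 3699, 3984 and 4081 with vehicle to 2684, 2224, 2384 and 2257 with ceftriaxone (adjusted p = 0.000187). The kainate receptor subunit gene Grik1 fell by 1.11 ± 0.14. Grin2c, a late NMDA receptor subunit, was the member called higher, at signals of 8, 18.1, 35.2 and 29.9 with vehicle and 46.6, 75.3, 40.5 and 78.1 with ceftriaxone. Its difference was 0.99 ± 0.27, and its call was lost without ceftriaxone array 2 (adjusted p = 0.0548) or 4 (adjusted p = 0.0525). Among the arrays of high Xist, 0 of the list were higher and 2 lower. Of 18 genes of the GABA and glycine synapse, 3 were higher (16.7%), 2 lower (11.1%) and 13 not called, with a median of 0.02. Those shares were not above the 17.8% higher and 16.8% lower over all genes. Slc12a2, the cotransporter NKCC1 that brings chloride into cells, rose by 1.49 ± 0.16, from 2093, 1759, 1295 and 1183 with vehicle to 4157, 4754, 4139.6 and 4359.8 with ceftriaxone (adjusted p = 0.000192). The glycine transporter gene Slc6a9 rose by 0.38 ± 0.08. The lower calls of that list were 0 without vehicle array 3 and 1 without vehicle arrays 2 or 4 or ceftriaxone arrays 2 or 4, each left out alone. The adult glycine receptor subunit gene Glra1 had 0.16 ± 0.19 and was not called, and without vehicle array 4 its value was -0.03.

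Genes of axon guidance, body position and imprinting were more often lower. Of 29 guidance genes, 5 were higher, 15 lower and 9 not called, with a median of -0.36. The semaphorin receptor gene Plxnc1 fell by 1.20 ± 0.13 and the netrin gene Ntn1 by 0.98 ± 0.12, while the netrin receptor gene Unc5b rose by 1.73 ± 0.18, from 289, 235, 187 and 153 with vehicle to 892, 791, 614 and 665 with ceftriaxone (adjusted p = 0.000193). Sema4d, a semaphorin of oligodendrocytes, rose by 0.69 ± 0.11, and the semaphorin gene Sema3e had 0.16 ± 0.13, not called. The counts were 3 higher and 9 lower among the arrays of high Xist. Of 23 Hox genes, the factors of head-to-tail position, 1 was higher, 10 lower and 12 not called, with a median of -0.44. Hoxa10, of lumbar levels, fell by 0.88 ± 0.10, and Hoxb9 fell by 1.40 ± 0.19, from 1082, 1718, 1391 and 993 with vehicle to 663, 396, 445 and 419 with ceftriaxone (adjusted p = 0.000594). Hoxb3 and Hoxa7, of more anterior levels, fell by 1.09 ± 0.12 and 0.79 ± 0.09, and Hoxd8 was the member that rose (0.42 ± 0.09). Hoxc6 and Hoxa5 had -0.44 ± 0.30 and -0.29 ± 0.18, with overlapping signals, and were not called with all 8 arrays. Hoxc6 was called without ceftriaxone array 1 (-0.73, adjusted p = 0.037).

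Of 17 imprinted growth genes, 3 were higher, 6 lower and 8 not called, with a median of -0.10. Nnat, a proteolipid of the developing brain, fell by 1.02 ± 0.09, from 11507, 12518, 13518 and 13807 with vehicle to 6024, 5640.4, 7635 and 6006 with ceftriaxone (adjusted p = 0.000131). Dlk1, Rian and Meg3, neighbours in a single imprinted cluster, fell by 0.95 ± 0.09, 0.98 ± 0.12 and 1.40 ± 0.23, and Meg3 fell by 2.12 ± 0.26 by a second, dimmer probe set. Plagl1, a zinc finger factor, fell by 0.69 ± 0.08, whereas Sgce, a sarcoglycan, rose by 0.52 ± 0.06. When each gene was read by the mean of its probe sets, 1 was higher and 5 lower. Of 28 trophic factors and receptors, 4 were higher, 8 lower and 16 not called, with a median of -0.25. Igf1, the insulin-like growth factor, fell by 1.13 ± 0.12, from 861, 895, 1028 and 1004 with vehicle to 489, 399.7, 493 and 334 with ceftriaxone (adjusted p = 0.000215), beside 319.7 ± 68.6 in wildtype. Its binding protein gene Igfbp2 fell by 0.91 ± 0.17. The low-affinity neurotrophin receptor gene Ngfr and the neurturin receptor gene Gfra2 fell by 0.98 ± 0.16 and 1.33 ± 0.20, and the growth factor gene Fgf1 rose by 1.18 ± 0.20.

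Of 20 measured genes that respond to glucocorticoids, 11 were higher, 0 lower and 9 not called, with a median of 0.62. Among the higher genes, Mt1 and Mt2 are also counted in the NRF2 list, and Glul in the glutamate and astrocyte lists. Klf9, a zinc finger factor induced by the hormone, had 1903, 2231, 1710.4 and 1275 with vehicle and 4233, 6169, 4692 and 6636 with ceftriaxone, beside 4070 ± 838 in wildtype, and rose by 1.60 ± 0.18 (adjusted p = 0.000246). Sgk1, a kinase induced by the hormone, had 1212, 1347, 1066 and 918 with vehicle and 1786, 3353, 2694 and 7419 with ceftriaxone and rose by 1.54 ± 0.35 (adjusted p = 0.00777). Nfkbia, the inhibitor of NF-kappa-B, rose by 0.78 ± 0.11 and the lipocalin gene Lcn2 by 1.74 ± 0.45. The mean log2 value of the list was 9.69, 10.23, 9.92 and 10.62 in ceftriaxone arrays 1 to 4, against 9.38 to 9.74 with vehicle and 9.28 to 9.47 in wildtype, so ceftriaxone array 1 lay within the vehicle range. Ceftriaxone arrays 2 and 4 were the highest in Klf9, Sgk1 and the list mean. Lcn2 and Sgk1 were not called among the arrays of high Xist (adjusted p = 0.0847 and 0.0508), where 4 of the 20 genes were higher. The count of 11 was 7 without vehicle array 1, 3 or 4 and 6 without ceftriaxone array 2, and 1 gene was lower without vehicle array 1 or 3.

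The cell cycle list was also spread among the ceftriaxone mice. Its mean log2 value was 8.36, 7.55, 8.25 and 7.67 in ceftriaxone arrays 1 to 4, against 8.07 to 8.32 with vehicle, so ceftriaxone arrays 2 and 4 were the lowest of the 8. Of 31 measured genes, 0 were higher, 4 lower (12.9%, against 16.8% over all genes) and 27 not called, with a median of -0.27. The replication helicase genes Mcm6 and Mcm7 fell by 1.03 ± 0.22 and 0.49 ± 0.13 and the ribonucleotide reductase gene Rrm1 by 0.41 ± 0.10. Mcm6 had 694, 522, 578 and 686 with vehicle and 382, 236, 420.4 and 193 with ceftriaxone. Without ceftriaxone array 1, 10 genes of the list were lower, and in the fit over all 12 arrays, 0 were (Mcm6 adjusted p = 0.23), a fit that includes a wildtype array rich in thymus genes.

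Of 19 p53 target genes, 7 were higher, 2 lower and 10 not called, with a median of 0.34. Zmat3, which binds RNA, had 996, 854, 764 and 709.9 with vehicle and 1978, 1750.4, 1798 and 1742 with ceftriaxone and rose by 1.12 ± 0.10 (adjusted p = 0.000122). Phlda3, Mdm2 and Ccng1 rose by 0.83 ± 0.08, 0.64 ± 0.08 and 0.55 ± 0.08. Ccng1, a cyclin, reached 2458 ± 224 beside 1847 ± 152 in wildtype and 1667 ± 127 with vehicle. Plk2, a kinase of the same list, fell by 0.31 ± 0.07. The count of 2 lower genes was 1 without vehicle arrays 1, 2 or 4 or ceftriaxone arrays 1 or 2, each left out alone.

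Of 20 heat shock genes, 4 were higher (20%), 4 lower (20%) and 12 not called, shares near those over all genes, with a median of 0.02. Hspa1b, the inducible Hsp70, had 1367, 1597, 1967 and 1937 with vehicle and 598, 500.2, 579.9 and 450.1 with ceftriaxone, beside 379.9 ± 52.7 in wildtype, and fell by 1.65 ± 0.13 (adjusted p = 0.000121). Its near-identical neighbour Hspa1a fell by 1.07 ± 0.16, and probes may not tell the pair apart. The small heat shock protein genes Cryab and Hspb8 rose by 2.72 ± 0.25 and 0.92 ± 0.18. Among the arrays of high Xist, 2 of the list were higher and 2 lower.

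Of 30 genes of the unfolded protein and integrated stress responses, 13 were higher, 4 lower and 13 not called, with a median of 0.16. The endoplasmic reticulum kinase gene Eif2ak3 rose by 0.60 ± 0.06, the co-chaperone gene Dnajb9 by 0.39 ± 0.05 and the sensor gene Atf6 by 0.59 ± 0.11. Psat1, an enzyme of serine synthesis, rose by 0.77 ± 0.07, from 2406, 2380, 2142 and 2092 with vehicle to 3491, 4171, 3704 and 4091 with ceftriaxone (adjusted p = 0.000132). The chaperone gene Hyou1 fell by 0.42 ± 0.09. Among the arrays of high Xist, 6 of the list were higher and 0 lower, and Hyou1 was not called (adjusted p = 0.0862).

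Of 24 immediate early genes, which respond to activity, 7 were higher, 3 lower and 14 not called, with a median of 0.21. Fos rose by 0.61 ± 0.10, from 448, 379, 339.9 and 437 with vehicle to 628, 663, 653 and 540.4 with ceftriaxone (adjusted p = 0.00172). Egr1 rose by 0.77 ± 0.15 and Arc, which is made at active synapses, by 1.70 ± 0.34, from a low level. The scaffold gene Homer1 fell by 0.59 ± 0.11. The count of 3 lower calls was 1 without vehicle array 4 or ceftriaxone array 2 and 2 without any other single array. Among the arrays of high Xist, 4 of the list were higher and 1 lower. Of 19 clock genes, 7 were higher, 3 lower and 9 not called, with a median of 0.26. Clock itself rose by 0.60 ± 0.06, Nr1d2 by 0.59 ± 0.09, and the output factor genes Hlf and Tef by 0.73 ± 0.13 and 0.68 ± 0.13, whereas Nr1d1 fell by 0.96 ± 0.21, from 482, 313, 363 and 303 with vehicle to 196, 174, 116 and 244 with ceftriaxone (adjusted p = 0.00676). Times of day at which cords were taken are not in the sources used here. With Xist signal as a covariate, 4 clock genes were higher.

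Genes of energy use had medians near 0. Of 25 genes of glucose use, 10 were higher, 6 lower and 9 not called, with a median of 0.08. The arrestin-related gene Arrdc4, which restrains glucose uptake, fell by 1.37 ± 0.12, from 594, 613, 634 and 675 with vehicle to 187, 242, 288 and 226 with ceftriaxone (adjusted p = 0.000122). Hk1, the main hexokinase of neurons, fell by 0.48 ± 0.06, and the lactate carrier gene Slc16a1, used by oligodendrocytes and vessels, rose by 0.88 ± 0.13. The kinase gene Pdk2, which restrains pyruvate oxidation, rose by 1.06 ± 0.18. The counts were 6 higher and 3 lower among the arrays of high Xist. Of 49 subunits of oxidative phosphorylation, 15 were higher, 0 lower and 34 not called, with a median of 0.08. Ndufs7 of complex I rose by 0.36 ± 0.07 and Sdha of complex II by 0.20 ± 0.04. That count rested on the setting: it was 9 without vehicle array 3 or 4 or ceftriaxone array 2 or 4, 5 with median centring, and 2 in the fit over all 12 arrays, where Sdha was not called (adjusted p = 0.054). A single subunit was lower without vehicle array 1 or ceftriaxone array 3.

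Of 42 measured ribosomal protein genes, 0 were higher, 9 lower (21.4%, against 16.8% over all genes) and 33 not called, with a median of -0.05. Rpl22 fell by 0.55 ± 0.14, from 3838, 4603, 4276 and 4156 with vehicle to 2360.5, 2418, 3807 and 3147 with ceftriaxone (adjusted p = 0.0139). The count of 9 was 4 without vehicle array 2 or 3, 2 without vehicle array 4 and 5 without ceftriaxone array 2. It was 0 among the arrays of high Xist and 17 with quantile normalization. A single gene was higher without vehicle array 4. Rpl22 was not called among the arrays of high Xist (adjusted p = 0.126) or in the fit over all 12 arrays (adjusted p = 0.161).

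Of 17 measured genes of the SMN complex and the small nuclear ribonucleoproteins it assembles, 0 were higher, 7 lower and 10 not called, with a median of -0.23. Gemin7, a subunit of the complex, had 908, 867, 869 and 824 with vehicle and 612, 555, 639.9 and 644 with ceftriaxone, beside 597 ± 77.9 in wildtype, and fell by 0.49 ± 0.07 (adjusted p = 0.000536). Prmt5, which methylates Sm proteins before assembly, fell by 0.39 ± 0.06. Lsm10, of the U7 particle that processes histone messages, fell by 0.35 ± 0.06, and Snrpb2, of the U2 particle, by 0.41 ± 0.08. Gemin8, another subunit of the complex, had -0.16 ± 0.15 and was not called. Among the arrays of high Xist and in the fit over all 12 arrays, 4 were lower. Snrpb2 was not called in the latter (adjusted p = 0.144).

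Of 31 genes of detoxification and drug transport, 11 were higher, 2 lower and 18 not called, with a median of 0.35. The lipid transporter genes Abca2 and Abcg1 rose by 1.12 ± 0.14 and 0.66 ± 0.08. Abcg2, a drug efflux pump of vessels, rose by 0.52 ± 0.08, from 598, 508, 478 and 550.5 with vehicle to 711, 783, 748 and 839 with ceftriaxone (adjusted p = 0.00138), beside 618 ± 98.8 in wildtype. Aldh1a1, a retinal dehydrogenase, rose by 1.63 ± 0.25, the oxysterol hydroxylase gene Cyp7b1 by 0.72 ± 0.12, and the carbonyl reductase gene Cbr1 fell by 0.48 ± 0.06. Cbr1 stayed lower in every fit without 1 array, and the second lower gene was lost without vehicle arrays 2, 3 or 4 or ceftriaxone array 3. The list had 7 higher and 1 lower among the arrays of high Xist.

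Of 16 genes of iron handling, 6 were higher, 1 lower and 9 not called, with a median of 0.12. Tfrc, the receptor that brings transferrin iron into cells, rose by 0.71 ± 0.13, from 2090.4, 1988, 1594 and 1579.9 with vehicle to 3388, 3272, 2847 and 2400.1 with ceftriaxone (adjusted p = 0.00218). Aco1, which senses cell iron, rose by 0.49 ± 0.05, as did Fth1, the store named above. The hepcidin gene Hamp had -0.35 ± 0.23 and was not called. Of 27 genes of the extracellular matrix, 5 were higher (18.5%), 3 lower (11.1%) and 19 not called, with a median of 0.05. Over all genes, 17.8% were higher and 16.8% lower. The protease gene Mmp2 rose by 0.91 ± 0.13 and the glycoprotein gene Sparc by 0.77 ± 0.12. Col14a1, a collagen of connective tissue, fell by 1.56 ± 0.26, from 547, 306, 378 and 592 with vehicle to 196, 112, 182 and 90.8 with ceftriaxone (adjusted p = 0.00166). Without vehicle array 2, 5 of the list were lower, and 9 were lower among the arrays of high Xist.

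Interferon-induced genes showed few changes. Of 23 measured, 2 were higher (8.7%, against 17.8% over all genes), 3 lower (13%, against 16.8%) and 18 not called, with a median of 0.22. The histocompatibility gene H2-K1 fell by 0.35 ± 0.05, from 3132, 2873, 3109 and 3053 with vehicle to 2298, 2327, 2474 and 2434 with ceftriaxone (adjusted p = 0.000565), and Stat2 rose by 0.59 ± 0.13 from a low level. In the fit over all 12 arrays H2-K1 was not called (adjusted p = 0.309). The number higher was 4 without vehicle array 1 or ceftriaxone array 1 and 1 without vehicle array 4 or ceftriaxone array 2.

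**Figure D5:**
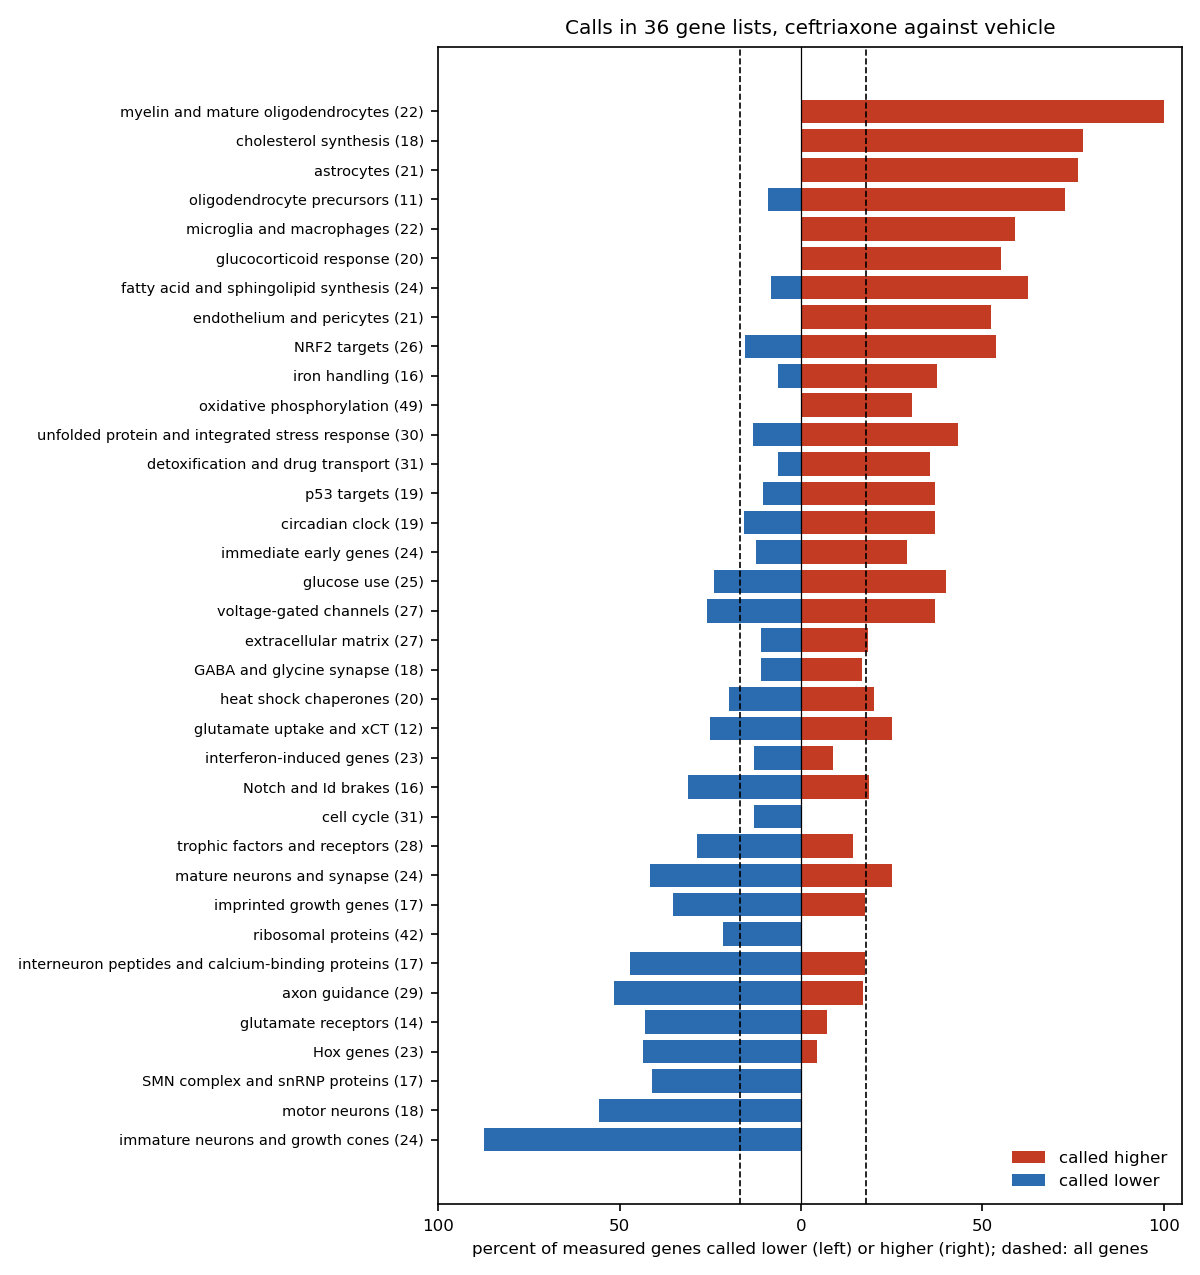
For each of 36 gene lists, the share of measured genes called higher (red, to the right) and lower (blue, to the left), with the number measured beside each name. Dashed lines mark the shares over all genes, 17.8% higher and 16.8% lower. The myelin list stands at 100% higher, and the immature neuron list has the tallest share lower, 21 of 24.

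Muscle RNA was present in the vehicle cords and was lower in the ceftriaxone cords. Of 23 skeletal muscle markers, 2 were higher, 16 lower and 5 not called, with a median of -1.49. Their signals summed to 3845, 4999, 8015 and 7832 in vehicle arrays 1 to 4 and to 2239, 1750, 1289 and 1814 in ceftriaxone arrays, beside 2113 to 4387 in wildtype. Pvalb, given above among interneuron genes, is also in this list and was 1 of the 2 higher. It makes up a larger part of the sums with ceftriaxone and in wildtype than with vehicle, so those sums overstate muscle RNA. Acta1, the actin of skeletal muscle, had 1139.9, 2045, 3430.2 and 2697 with vehicle and 327, 195, 154 and 170.1 with ceftriaxone and fell by 3.31 ± 0.32 (adjusted p = 0.000151). Myl1, a myosin light chain of fast muscle, had 382, 539, 911 and 1102 with vehicle and 109.7, 36.3, 30.6 and 18.6 with ceftriaxone and fell by 3.60 ± 0.42. The troponin genes Tnnc2 and Tnnt3 fell by 3.81 ± 0.45 and 2.54 ± 0.30 to means of 23.3 and 18.5. The sizes of these falls rest on the offset: with 64 in place of 16, Tnnc2 differed by -2.58 and Tnnt3 by -1.52. Most markers were dim: among probe sets above the 40th percentile, 4 were lower. The count of 2 higher was 1 without vehicle array 1 or ceftriaxone array 2 or 4. Vehicle arrays 3 and 4, with the most muscle signal, were also those with the lowest myelin and highest immature neuron signals. The part of muscle tissue in any other difference was not tested.

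Markers of other neighbouring tissues, in short lists, were mostly not called, as were most of all genes. Lower calls made up 28.6% of the meninges list, 28.6% of the fat list and 37.5% of the epidermis list, against 16.8% over all genes. They made up 18.2% of the cartilage and bone list and 0% of the other lists named here. Of 14 markers of meninges and fibroblasts, 1 was higher, 4 lower and 9 not called, and their signals summed to 8746 to 13390 with vehicle and 7030 to 9848 with ceftriaxone. Igf2, an imprinted growth factor that meninges make, had 2491, 1559, 1758 and 2574 with vehicle and 778, 1156, 1559 and 1233 with ceftriaxone and fell by 0.83 ± 0.22 (adjusted p = 0.0158), with vehicle array 2 and ceftriaxone array 3 nearly equal. The fat marker Fabp4 had 470.5, 1375, 353 and 302 with vehicle and 152, 149.7, 390.4 and 49.8 with ceftriaxone, with vehicle array 2 far above the rest. Fabp4 was called lower (-1.68 ± 0.57, adjusted p = 0.0462), and the call was lost under any of 6 of the 8 arrays left out (adjusted p of 0.061 to 0.108). Of 11 cartilage and bone markers, 3 were higher and 2 lower, of 7 kidney and adrenal markers, 1 was higher, and of 8 epidermis markers, 3 were lower. Of 7 markers of dorsal root ganglion neurons, 1 was called, and of the 5 of ependyma and 4 of red blood cells, 0 were. Of 11 thymus and T cell markers, 2 were higher, and the 11 summed to 97.6 to 165.3 with vehicle and 161 to 579.3 with ceftriaxone, far below the 38630 of wildtype array 2.

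The genes of largest change were taken over all probe sets with a mean signal above the 40th percentile and with arrays that did not overlap, each gene by its most changed probe set. Besides Mog and Apod, the 15 largest rises were Mal (3.39 ± 0.42) and Ppp1r14a (3.32 ± 0.41), Slc45a3 (3.16 ± 0.45), Anln (2.88 ± 0.24), Plekhh1 (2.82 ± 0.33), Gsn (2.81 ± 0.33), Gjb1 (2.77 ± 0.37), Cryab (2.75 ± 0.26), Pdlim2 (2.64 ± 0.34), Car14 (2.61 ± 0.33), Mobp (2.48 ± 0.36), Ugt8a (2.45 ± 0.28) and Adamts4 (2.29 ± 0.38). Of the 15, Mog, Apod, Mal, Gsn, Gjb1, Cryab, Mobp and Ugt8a are also in the myelin list, where the last 6 are read by a brighter probe set. Mal is a proteolipid of compact myelin, Mobp an oligodendrocyte protein of the same membrane, Gjb1 a connexin of oligodendrocytes and Ugt8a the enzyme that makes galactocerebroside. Anln, an actin-binding protein of dividing cells that myelin also holds, had 197, 142, 91.3 and 82 with vehicle and 873, 991, 872 and 1299.7 with ceftriaxone. Car14, a membrane carbonic anhydrase, had 91.2, 79.5, 29.7 and 34.1 with vehicle and 263, 619, 348 and 493 with ceftriaxone. Among dimmer probe sets with 1 symbol, the rises above that of Mog were of Prg2 (4.06 ± 0.54) and Klk6 (3.50 ± 0.35), which were named after their values were seen. Prg2, a granule protein of eosinophils, had 1.4, 7.2, 3.2 and 1.6 with vehicle, near the floor, and 907, 82.8, 357 and 292 with ceftriaxone, beside 164 ± 88.4 in wildtype. Its difference rests on the offset and was 6.29 with 1 in place of 16 and 2.51 with 64. Klk6, a protease of oligodendrocytes, had 52.4, 43.8, 5.8 and 14.5 with vehicle and 399, 453, 352 and 601 with ceftriaxone.

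The 15 largest falls among bright probe sets held Acta1, Myl1, St8sia2, Meg3, Hcn3 and Dpysl5, named above, Dcx by a dimmer probe set (-2.45 ± 0.24), and 2 more muscle genes, Mylpf (-2.88 ± 0.43) and the creatine kinase gene Ckm (-1.84 ± 0.30). Cxadr, an adhesion molecule of developing neurons and muscle, fell by 2.70 ± 0.28, from 307, 322, 539.6 and 504 with vehicle to 44.5, 31.9, 96.7 and 38.5 with ceftriaxone (adjusted p = 0.000191). Jpt1, a small protein of growing cells, had 1555, 1362, 1161 and 1211 with vehicle and 242, 235, 388 and 243 with ceftriaxone and fell by 2.21 ± 0.16. The others were the vesicle GTPase gene Rab3d (-1.91 ± 0.27), the corepressor gene Runx1t1 (-1.88 ± 0.19), Dpysl3, a relative of Crmp1, by a dimmer probe set (-1.80 ± 0.16), and Syce2, known from the meiotic synapse of chromosomes (-1.77 ± 0.16).

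The genes of smallest p, under the same conditions, were in part others. Wasl, which starts actin branches, had 1072, 1098, 1038 and 1072 with vehicle and 2009, 2176, 1916 and 2029.8 with ceftriaxone and rose by 0.92 ± 0.05 (adjusted p = 0.000114). Ddr1, a collagen receptor of oligodendrocytes and epithelia, rose by 1.25 ± 0.07, from 3618, 3536, 2970.3 and 3431 with vehicle to 7494, 8889, 7916 and 8096 with ceftriaxone. The ubiquitin ligase gene Rffl, the septin gene Septin8 and the vesicle protein gene Sypl rose by 2.08 ± 0.15, 1.82 ± 0.13 and 1.20 ± 0.09. On the lower side were Dpysl3 by a second probe set (-1.46 ± 0.09), the transcription factor gene Ebf1 (-1.31 ± 0.09), Runx1t1 by a second probe set (-1.56 ± 0.11), the parathymosin gene Ptms (-0.74 ± 0.05) and Jpt1. Ptms had 4004, 3962, 4014 and 4124 with vehicle and 2519, 2331, 2546 and 2246 with ceftriaxone.

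Probe sets of 1 gene mostly agreed in direction. Of 1280 genes with 2 or more called probe sets, 1233 had all of them on the same side (96.3%) and 47 had called probe sets on both sides (3.67%). The widest splits included Gnao1, a G protein subunit of neurons, whose bright probe set fell by 0.66 ± 0.08 from a mean of 4285 to 2717 while a dim one rose by 1.59 ± 0.39 from 76.0 to 235. Rasgrf1, a Ras activator of neurons, rose by 0.94 ± 0.15 and 0.77 ± 0.09 by its bright probe sets and fell by 0.62 ± 0.09 by a dimmer one. Arf3, Mtm1 and Stom fell by brighter probe sets and rose by a dimmer one. Eln rose by its brighter probe set and fell by a dimmer one. Which transcripts these probe sets read was not tested.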

How the data were processed

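Spinal cord RNA of 12 mice was hybridised to 1 Affymetrix array each. The authors deposited linear signal intensities of probe sets made with MAS5, a tool named in the submitters' processing notes without a version. Arrays carry no read depth, so the number of arrays limits the precision. Of 22690 probe sets, 64 controls were left out. The 4 ceftriaxone and 4 vehicle SMA arrays were fitted alone with limma 3.58.1 in R 4.3.3 on log2(signal + 16), with eBayes and an intensity trend (6 residual degrees of freedom) and Benjamini-Hochberg adjustment over 22626 probe sets. A difference was called at an adjusted p of at most 0.05. The fit was tested on simulated data. Gene symbols came from the platform annotation: 20380 probe sets had 1 symbol, 691 several and 1555 none, and 20351 symbols were matched to the reference.

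The experiment described and all gene and marker lists were chosen with earlier results of these data known. The text names the 15 largest rises and the 15 largest falls among called probe sets with 1 symbol, no overlap between the groups and a mean signal above the 40th percentile (each gene by its most changed probe set), the 5 smallest p in each direction under the same conditions, in each list up to 6 called genes of smallest p and up to 3 not called, Slc1a2, Slc1a3, Slc7a11, Nfe2l2, Gfap and Smn1 always, up to 6 genes whose probe sets were called in opposite directions, and markers of other tissues with a signal over 1000. The genes not called were picked within each list after their values were seen, mostly among those whose call held when any 1 array was left out. Txnrd1, Cspg4, Tnnc2, Tnnt3, Egr2, Cldn19, Prg2 and Klk6 fall outside that rule and were also chosen after their values were seen. Alternatives changed the offset, scaling, filter, variance model, array weights, arrays in the fit, reading of several probe sets, and added a replicate block, Xist signal or Gapdh signal at the 3 prime over the 5 prime end.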

Additional observations from a re-analysis of the deposited data

Results flagged for a closer look

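Dixon's test asks whether the highest or lowest of 4 arrays stands apart from the others of its group, and chance does so in about 1 in 20 groups. Of 528 groups of 4 values, 23 had such an array (4.36%). Single genes in which a ceftriaxone array was the highest of its group were Txnrd1 (1618.5) and Pdgfra (3273.2) on array 1, Bmp4 (831.8) and Lss (2022.6) on array 2, Jpt1 (388.4) on array 3, and Hes6 (405.4) and Lcn2 (436.9) on array 4. A ceftriaxone array was the lowest for Id4 (3898.7) and Pmp22 (3421) on array 1, Eno2 (7110.2) and Scn3b (1970.4) on array 2, Ugt8a by its brightest probe set (14094.2) on array 3 and Aco1 (2469.8) on array 4. Among vehicle arrays the highest stood apart for Clock (480.1), Fth1 (13380) and Srxn1 (605.2) on array 2, Ebf1 (1910.2) and Hoxa5 (1808) on array 3, and Smn1 (5.7) on array 4.

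Of the values over lists, the summed Schwann cell markers were lowest on ceftriaxone array 1 (3808). The mean log2 value of the interneuron list was highest (10.07) and that of glucose use lowest (10.44) on the same array, and that of the extracellular matrix was highest on ceftriaxone array 3 (8.69).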

How the results depend on the processing

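The count of 7066 called probe sets (3490 higher and 3576 lower) ran from 5522 to 7161 when 1 array was left out (2733 to 3528 higher and 2789 to 3633 lower). Among the 6 arrays of high Xist it was 4056 (2013 higher and 2043 lower), a fit with fewer arrays. Above the 60th percentile of signal, where 9050 probe sets were tested, it was 4865 (2219 higher). Under the other alternatives it lay between 4861, with Xist signal as a covariate, and 7442, with array weights. It was 5059 in the fit over all 12 arrays and 7316 in that fit without wildtype array 2. Median centring turned the split to 2991 higher and 4106 lower.

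The replicate numbers did not pair the mice: deviations from the group means of arrays with the same number correlated at -0.018, 0.0275, 0.00573 and -0.0447. With a replicate block, 6300 probe sets were called (3093 higher and 3207 lower), and of the 215 genes tested by name Id2 and Txnrd1 lost their call.

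Of those 215 genes, 13 lost their call in the fit over all 12 arrays, 11 among the arrays of high Xist and 7 with Xist signal as a covariate, and at most 3 without any 1 array. Once wildtype array 2, the array rich in thymus genes, was left out of the 12-array fit, 0 of the 215 lost their call. Genes that changed sign were not called: Slc1a3 was -0.03 with median centring and -0.11 to 0.12 without 1 array, and Glra1 was -0.03 to 0.30 without 1 array. Of 74 counts over lists, 47 moved by more than 1.5 times under an alternative other than leaving out 1 array, so small counts in lists depend on the setting. The causes were not tested. The probe sets of Slc1a2, Smn1 and Grin2c are dim, and the offset shrinks differences near the floor.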
